A study of Mus musculus with 18 samples.

Results

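The 85 cytosolic ribosomal protein genes of the mouse were followed through all 18 RNA-seq libraries of a study of LPS-stimulated macrophages. They are the protein-coding genes whose symbol starts with Rpl or Rps and a digit, together with Rplp0, Rplp1, Rplp2 and Rpsa, leaving out pseudogenes, the ribosomal S6 kinases and Rps19bp1. They make up 85 of the 50600 genes in the count table, with 52 genes for proteins of the large subunit or their paralogs and 33 for the small subunit, and below they are called the members. The rule reads gene symbols and uses no measured value. The cells were bone marrow cells of WT and IRF5 KO mice grown for 8 days with GM-CSF, a cytokine that drives macrophage and dendritic cell development. IRF5 is a transcription factor that drives inflammatory genes in macrophages, and defactinib is an inhibitor of the kinases FAK and PYK2. The study asked whether the inhibitor blocks the IRF5-dependent part of the LPS response.

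In each genotype 3 groups of 3 libraries were compared. The unstimulated group received no LPS (0 h) and is labelled as DMSO in the sample records and as UT in the table header. The LPS DMSO group received the solvent for 1 h and then 100 ng/ml LPS for 2 h. The LPS defactinib group received 3.5 µM defactinib for 1 h before the same LPS treatment. No group with defactinib but without LPS was analysed here. The cells were a bulk culture, so that fewer cells of a type and less RNA per cell cannot be told apart. The sources used here do not say whether the replicates of a group came from separate animals, so the p-values measure the spread between these libraries.

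A cytosolic ribosome joins a small subunit, which reads the mRNA, to a large subunit, which forms the peptide bonds. Each ribosome holds the ribosomal proteins in equal copy number, with the exception of the P1 and P2 stalk proteins (Rplp1 and Rplp2), and the genes lie scattered over the chromosomes. Their mRNAs are short, abundant and stable, and most start with a run of pyrimidines known as a 5′ terminal oligopyrimidine (TOP) tract. Through this tract their translation is set by the kinase mTORC1 and the RNA-binding protein LARP1, while the amount of mRNA changes slowly in most cells.

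RefSeq start sites (GRCm38.p6) were at hand for 65 of the 85 members. The sense strand from 40 bases before to 40 bases after the start held a C followed by at least 6 further C or T in 50 of the 65 (76.9%), against 33.9% of the 17492 protein-coding genes with such a window. The windows below are shown for members that the results turn on, 30 bases each from 5′ to 3′, with the longest pyrimidine run in capitals (in Rps27l the first of a pair of equal length).
Rps6 (chr4:86857342-86857371, minus strand): gggCCTCTTTTTCgtgacgcctcccaggcg
Rpl28 (chr7:4792960-4792989, plus strand): tgtCTCTCTTTCCgtctccggccgccatag
Rpl27a (chr7:109519188-109519217, plus strand): gagCTCCTCCCTTTTCCCTTTCTgccaccg
Rpl13a (chr7:45128717-45128746, minus strand): agaCCTCCTCCTTTCCCaggcggctgccga
Rpl22l1 (chr3:28805508-28805537, plus strand): gttCTCTTCCCacggctgcagctcaacatg
Rpl5 (chr5:107900505-107900534, plus strand): ccaCTCTTTCTCacgtcgcttgcgtgctgg
Rpl12 (chr2:32961671-32961700, plus strand): gagCTTTTCCgcctatatccggcgtgggcg
Rpl10a (chr17:28328459-28328488, plus strand): gcgCCCCCCCagcggccgcaaactgcagcg
Rps27l (chr9:66946061-66946090, plus strand): ccaCTCCTCTCCactcctccccgccgcctc
With the RefSeq start as position 1, the run began at position -1 in Rps6, -2 in Rpl28, -4 in Rpl27a, 3 in Rpl13a and 4 in Rpl22l1. It began at position -9 in Rpl10a, -20 in Rpl5, -22 in Rps27l (the other run of that length lies nearer the start) and -38 in Rpl12. Runs were thus close to the start in the first set and farther upstream in the second, and a run away from the start is not a TOP tract by its position. In the whole 300-base windows (250 bases before and 50 after the start, both strands) the letters CTTCCG, the core that ETS factors bind, stood in 66.2% of the members and 21.5% of all promoters. This motif can overlap a pyrimidine run. The letters AAGATGG, a YY1 core, stood in 13.8% of members and 6.37% of promoters, the E-box CACGTG in 7.69% and 7.88%, and TATAAA in 9.23% and 13.4%. These matches describe letters only.

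Before the member values, several facts about the libraries matter. The libraries held 39282181 to 61949143 counts. Irf5 itself was counted at 587 to 650 CPM in unstimulated WT and at 335 to 397 CPM in unstimulated IRF5 KO libraries, and at 434 to 475 against 345 to 435 CPM after LPS with DMSO. A count summed over all exons cannot tell whether some of them are deleted, so Irf5 does not check the genotype labels here. The 3 IRF5 KO LPS DMSO libraries were not alike, and whether the label of replicate 3 is right could not be settled from the sources used here. Over all genes replicates 1 and 2 differed by a chi-square of only 2.33 per gene. Over the members they differed by 5.93 per gene, and replicate 3 differed from them by 966 and 892. The WT LPS defactinib replicates also stood far apart over the members, at 373 for replicates 1 and 2, 328 for 1 and 3 and 1153 for 2 and 3, while the highest value of a pair in the other 4 groups was 71.5. The long non-coding RNAs Gm26917 and Gm42418 lie on chromosome 17 where the assembly holds a copy of pre-ribosomal RNA. Gm26917 was counted at 47.0 to 143 CPM in the unstimulated and WT LPS DMSO libraries and at 113 CPM in IRF5 KO LPS DMSO replicate 3. It was counted at 26817 and 26679 CPM in IRF5 KO LPS DMSO replicates 1 and 2 and at 11392 to 41939 CPM in the 6 defactinib libraries. The main counts of members higher or lower that rest on IRF5 KO LPS DMSO are given with and without replicate 3. Counts by subunit, by level, by overlap and at an unadjusted p are given with it only. Single genes are given both ways where its omission changed a call stated below or matters for the size. Without replicate 3 the group holds only the closely alike replicates 1 and 2, and more of all genes passed in every comparison. The 8 macrophage markers were all detected, and most of their sum was Lyz2, the lysozyme of myeloid cells. They summed to 9816 to 10150 CPM in WT unstimulated, 9740 to 10317 CPM in WT LPS DMSO and 10801 to 15126 CPM in WT LPS defactinib. In IRF5 KO they summed to 10331 to 14699 CPM unstimulated, 9897 to 12387 CPM in LPS DMSO and 18205 to 19152 CPM in LPS defactinib. Adgre1, which encodes F4/80, had means of 73.3 CPM in WT and 302 CPM in IRF5 KO unstimulated, and 94.4 and 565 CPM in LPS DMSO. Mertk, a receptor for the uptake of dead cells, went the other way, at 66.4 and 47.0 CPM unstimulated and 150.3 and 31.3 CPM in LPS DMSO. The 12 T, B and NK cell markers summed to 0.78 to 3.44 CPM. The 8 dendritic cell markers summed to 117 to 125 CPM in WT unstimulated, 379 to 489 CPM in WT LPS DMSO and 57.6 to 87.7 CPM in WT LPS defactinib. In IRF5 KO they summed to 122 to 167 CPM unstimulated, 225 to 276 CPM in LPS DMSO and 274 to 286 CPM in LPS defactinib. Most of the WT LPS DMSO sum was Ccr7, at a mean of 311 CPM against 23.2 CPM with defactinib, while Clec9a had 4.99 and 9.70 CPM. The 10 mast cell and basophil markers summed to 10.8 to 11.7 CPM in WT unstimulated, 45.5 to 58.2 CPM in WT LPS DMSO and 10.01 to 34.8 CPM in WT LPS defactinib. In IRF5 KO they summed to 49.4 to 57.5 CPM unstimulated, 50.2 to 102 CPM in LPS DMSO and 50.97 to 55.5 CPM in LPS defactinib. Hdc and Gata2 went opposite ways between the genotypes after LPS with DMSO, Hdc at means of 35.4 CPM in WT and 14.1 CPM in IRF5 KO and Gata2 at 3.74 and 34.8 CPM. The 10 neutrophil markers summed to 62.9 to 85.7 CPM in WT unstimulated, 122 to 237 CPM in WT LPS DMSO and 117 to 168 CPM in WT LPS defactinib. In IRF5 KO they summed to 76.3 to 89.6 CPM unstimulated, 149 to 186 CPM in LPS DMSO and 147 to 171 CPM in LPS defactinib. The part of these markers in the member results was not tested.

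The members together took 1.44% to 2.78% of all counts. Their share was 1.63, 1.59 and 1.55% in WT unstimulated replicates 1 to 3 and 1.46, 1.44 and 1.46% in WT LPS DMSO. It was 2.25, 2.78 and 1.77% in WT LPS defactinib, where the replicates differed most among the WT groups. In IRF5 KO cells the share was 1.80, 1.91 and 1.73% in unstimulated libraries, 2.78, 2.76 and 1.90% after LPS with DMSO, and 2.46, 2.41 and 2.48% after LPS with defactinib. All 9 libraries of the WT unstimulated, WT LPS DMSO and IRF5 KO unstimulated groups lay at or below 1.91%. The 7 libraries above 2.00% all had Gm26917 above 10000 CPM, and WT LPS defactinib replicate 3 (33727 CPM of Gm26917, share 1.77%) was the exception to that pairing. Gm42418 was at 13660 to 22041 CPM in the 6 defactinib libraries and IRF5 KO LPS DMSO replicates 1 and 2, but also at 13369 CPM in WT unstimulated replicate 3, where the share was 1.55%. The part of either RNA in the members' level was not tested.

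**Figure D1:**
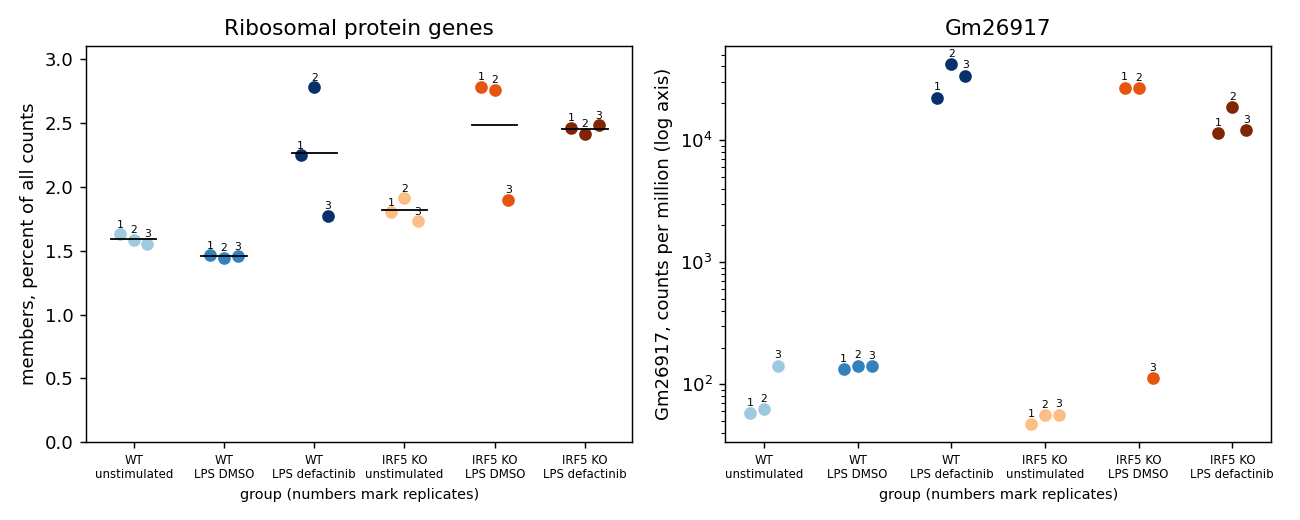
Left, the members' summed counts as a percent of all counts in each of the 18 libraries, with the group mean as a line. Right, Gm26917 in CPM on a log axis. IRF5 KO LPS DMSO replicate 3 sits at 1.90% and 113 CPM, apart from replicates 1 and 2 at 2.78 and 2.76%.

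Levels of single members were far apart although the ribosome holds their proteins in equal number. Per length, as RPKM averaged over the 18 libraries, Rplp1 (a stalk protein) was highest with 1224, followed by Rpl8 (976) and Rplp0 (897), the base of the stalk. The median member had 48.5 RPKM. The length used is that of all annotated exons, which can far exceed the coding transcript. It was 6270 against 640 bases in Rps15a, while both were 499 bases in Rplp1. A longer exon length lowers the RPKM, so the order of members here and the RPKM values below depend on the annotation. In CPM, which uses no length, the levels were also far apart, with means of 1489 for Rplp0 and 2.27 for Rps13. Rps27 had 2.77 RPKM, Rps13 0.843 and Rpl39l 0.651, and Rpl10l, a testis paralog of Rpl10, had no count in any library. Only uniquely mapped read pairs were counted, and the genome holds 283 annotated ribosomal protein pseudogenes with -ps symbols. For each member the share of 100-base windows of its coding transcript that occur unchanged in the transcript of another annotated gene elsewhere was therefore counted. At least 1 window was shared in 76 of the 85 members, and the median share was 39.1%. The 32 members with over 50% of windows shared had a median of 19.6 RPKM, and the remaining members a median of 58.7 RPKM. Spearman's rho between the shared percent and the RPKM was -0.35 across the 85 members, which are not independent and share all libraries. Rps27 shared 98.4% of its windows, Rps6 83.6% and Rpl10a 75.9%. The relation was loose, since Rps27rt shared 89.5% of its windows at 708 RPKM and Rps2 62.3% at 492 RPKM, while Rpl13a shared 1.05% at 10.1 RPKM. The part of unique mapping in a low level was not tested. The counts of the pseudogenes stood in a nearly fixed ratio to those of the members, 0.313 to 0.334 in every library. Of the 85 members 84 passed the filter on low counts and were tested, and the sentences below on rises and falls use an adjusted p below 0.05.

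**Figure D2:**
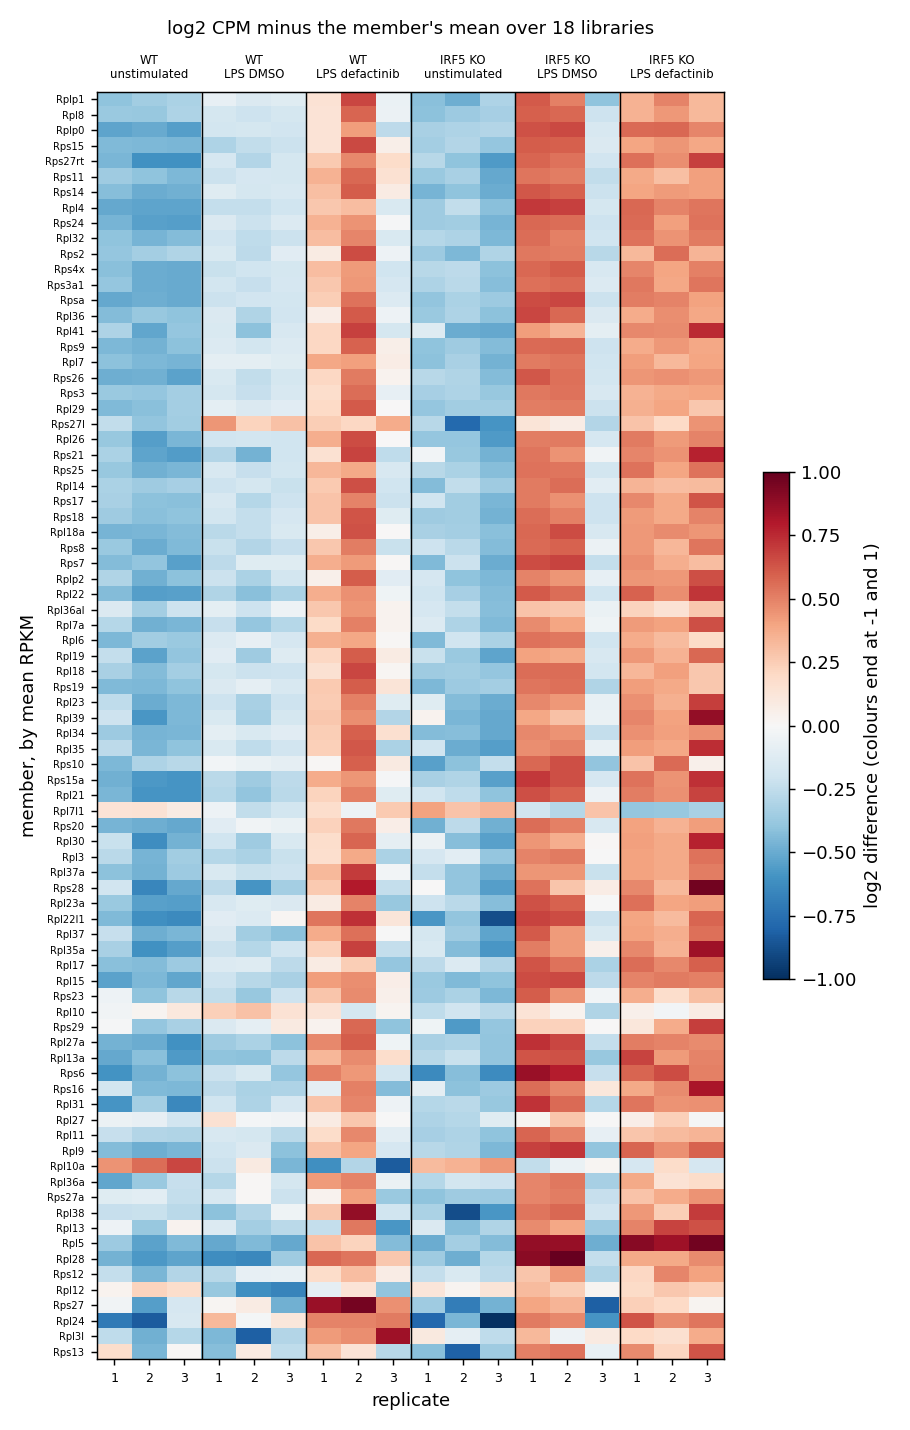
Log2 CPM of 82 members (by mean RPKM) in 18 libraries, each minus the member's own mean over the libraries. Rpl10l, Rpl39l and a member not reported by name are left out. IRF5 KO LPS DMSO replicates 1 and 2, the IRF5 KO LPS defactinib libraries and WT LPS defactinib replicate 2 are among those high for most members. Rpl10a, Rpl7l1, Rpl12, Rpl10 and Rps27l follow other patterns.

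With all groups in the fit, LPS in WT cells moved few members past the test. Of 84 tested members 2 rose and 2 fell, where 20.6% of all 15663 tested genes rose and 21.2% fell. The member median was a log2 fold change of 0.19, a 1.14-fold difference, and the median of all tested genes was -0.0045. In 54 members every WT LPS DMSO library was above every unstimulated library, against 31.8% of all tested genes, so the direction was common and the size small. With library size as the only scaling the median turned to -0.18, while the median of all tested genes moved to -0.38. In that fit 1 member was higher and 6 were lower, beside 12.2% and 41.5% of all genes. With only the 2 groups compared in the fit, 48 members rose and 3 fell, beside 30.8% and 32.1% of all genes, at a median of 0.19. Relative to all genes the members were thus on the upper side under both scalings. Without IRF5 KO LPS DMSO replicate 3, which is outside the comparison but shares the estimate of the spread, 22 members were higher and 3 lower at a median of 0.19, beside 25.5% and 26.6% of all genes tested in that fit.

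Rps27l, a paralog of Rps27 that is also a p53 target, had the largest rise that passed. It was counted at 147, 133 and 137 CPM in unstimulated WT and at 237, 203 and 213 CPM after LPS. The groups did not overlap, and the log2 fold change was 0.65 ± 0.13 (SE, adjusted p = 8.0e-04). Rps20, a protein of the small subunit head, went from 103 to 106 CPM up to 136 to 143 CPM (log2 fold change 0.42 ± 0.15, adjusted p = 0.036). That call was lost when any library of either group, or any IRF5 KO LPS defactinib library, was left out. Rpl10a, which sits at the stalk that releases spent tRNA, fell. Its levels were 21.7, 23.4 and 25.2 CPM unstimulated and 13.75, 16.9 and 11.6 CPM after LPS, a log2 fold change of -0.74 ± 0.16 (adjusted p = 0.0013). Rpl12, which binds at the base of the stalk near Rplp0, fell from 15.02, 17.1 and 16.6 CPM to 11.3, 9.59 and 9.30 CPM, a log2 fold change of -0.69 ± 0.13 (adjusted p = 5.2e-04). Neither of the 2 falling genes overlapped between the groups, and both are among the low members by mapped level. Rplp0, often used as a reference gene in quantitative PCR, was at 989, 1004 and 973 CPM before and 1252, 1258 and 1250 CPM after LPS (log2 fold change 0.34 ± 0.18, adjusted p = 0.14). With replicate 3 of IRF5 KO LPS DMSO omitted it passed at 0.34 ± 0.11 (adjusted p = 0.015).

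LPS in IRF5 KO cells raised 71 of 84 members and lowered 2. Among all tested genes 18.5% rose and 19% fell. The member median was 0.70, a 1.62-fold rise, beside 0.0063 for all tested genes. The middle members lay close together, with quartiles of 0.61 and 0.74, and 3 members passed a 2-fold change. Of the 51 tested large subunit members 42 rose (median 0.69), and of the 33 small subunit members 29 rose (median 0.71). In 59 members the libraries of the groups did not overlap and were higher after LPS, against 16.6% of all tested genes. Among the 45 members of at least 100 CPM all 45 rose, with log2 fold changes from 0.45 to 0.84, and among the 27 tested members under 30 CPM 17 rose and 1 fell. The size rests on the libraries. Without IRF5 KO LPS DMSO replicate 3 the median was 0.90 with 78 members higher and 2 lower, beside 28.0% and 30.3% of all genes in that fit. Without replicate 1 or 2 of that group 44 and 48 rose, at medians of 0.59 and 0.61, beside 9.49% and 9.81% of all genes. Without unstimulated IRF5 KO replicate 1, 2 or 3 68, 61 and 53 rose, beside 10.8% to 12.6% of all genes. In the runs without LPS DMSO replicate 1 or 2, or unstimulated replicate 1 or 3, no member fell, beside 6.19% to 11.1% of all genes. Without unstimulated replicate 2, 1 member fell, beside 12.8%. When only the 2 groups compared were fitted, no member passed at a median of 0.75, and 1.43% of all genes rose and 0.113% fell in that fit.

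Rps6, the small subunit protein that the S6 kinases phosphorylate, had the largest rise. It was counted at 9.60, 11.1 and 9.68 CPM in unstimulated IRF5 KO and at 27.2, 25.8 and 12.8 CPM after LPS, a log2 fold change of 1.11 ± 0.23 (adjusted p = 0.0032). Replicates 1 and 2 after LPS were both more than 2 times every unstimulated library and replicate 3 lay just above the unstimulated range, and without replicate 3 the log2 fold change was 1.39 ± 0.15. Rpl22l1, the paralog of Rpl22, went from 23.1, 26.5 and 18.8 CPM to 55.5, 54.5 and 29.9 CPM (1.03 ± 0.20, adjusted p = 0.0027). Rps14, a small subunit protein, was far more abundant and moved alike, from 607, 635.5 and 594 CPM to 1292, 1263 and 724 CPM (0.84 ± 0.17, adjusted p = 0.0029). For all 3 genes replicate 3 was the lowest library after LPS and still above the unstimulated libraries. Rpl28 passed 2-fold too, at 1.04 ± 0.23 (adjusted p = 0.0047), but its replicate 3 (6.67 CPM) was close to the highest unstimulated library (6.49 CPM), and without it the value was 1.35 ± 0.12. Among the most abundant members, Rpl8 rose from 614, 634 and 648 CPM to 1229, 1210 and 706 CPM. Rplp0 rose from 1140, 1149 and 1161 CPM to 2213, 2251 and 1273 CPM, and Rpsa, a laminin receptor as well as a ribosomal protein, rose from 890, 937 and 909 CPM to 1833, 1853 and 1005 CPM.
Rpl5 and Rpl11, which carry the 5S RNA and bind MDM2, also rose. Rpl5 was at 11.9, 13.3 and 12.4 CPM unstimulated and at 30.8, 30.7 and 11.96 CPM after LPS (0.97 ± 0.26, adjusted p = 0.012), so that replicate 3 lay inside the unstimulated range. Without replicate 3 Rpl5 had 1.29 ± 0.14. Rpl11 was at 17.2, 17.5 and 16.4 CPM and then at 32.5, 30.4 and 20.5 CPM (0.70 ± 0.15, adjusted p = 0.0044). The 2 members that fell were Rpl10a, with 19.8, 20.3 and 21.6 CPM before and 13.4, 15.2 and 16.1 CPM after (-0.46 ± 0.16, adjusted p = 0.032), and Rpl7l1, a nucleolar paralog of Rpl7, at -0.38 ± 0.12 (adjusted p = 0.025). For Rpl7l1 replicate 3 was again apart, with 118 CPM against 84.8 and 79.9 CPM in replicates 1 and 2 and 118 to 128 CPM unstimulated, and without it the log2 fold change was -0.58 ± 0.09.

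The LPS effect of the 2 genotypes was compared directly as an interaction. No member was higher in WT by this test and 3 were lower, Rpl12, Rps23 and Rpl28, beside 9.77% and 7.35% of all tested genes, and the member median was -0.48 (all genes -0.059). At an unadjusted p under 0.05 there were 27 members in either direction, beside 32.9% of all tested genes. DESeq2 likewise called none higher, and 6 lower, beside 12.9% and 9.72% of all genes. Rpl12 fell in WT (-0.69) and was at 0.11 in IRF5 KO, an interaction of -0.80 ± 0.18 (adjusted p = 0.0090). Rps23, at the decoding centre, had log2 fold changes of -0.04 in WT and 0.74 in IRF5 KO (interaction -0.78 ± 0.22, adjusted p = 0.025). The count depended on the libraries. With IRF5 KO LPS DMSO replicate 3 left out it was 68 lower and 1 higher at a median of -0.66, beside 21.4% and 25.3% of all genes in that fit, and without WT LPS defactinib replicate 3 it was 7 (8.92% of all genes). With library size as the only scaling 19 were lower, beside 14.4% of all genes. The number lower was 1 without replicate 1 or 2 of IRF5 KO LPS DMSO, WT unstimulated replicate 1, WT LPS DMSO replicate 2, or IRF5 KO unstimulated replicate 1 or 3. In those fits 4.57% to 5.26% of all genes were lower.

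**Figure D3:**
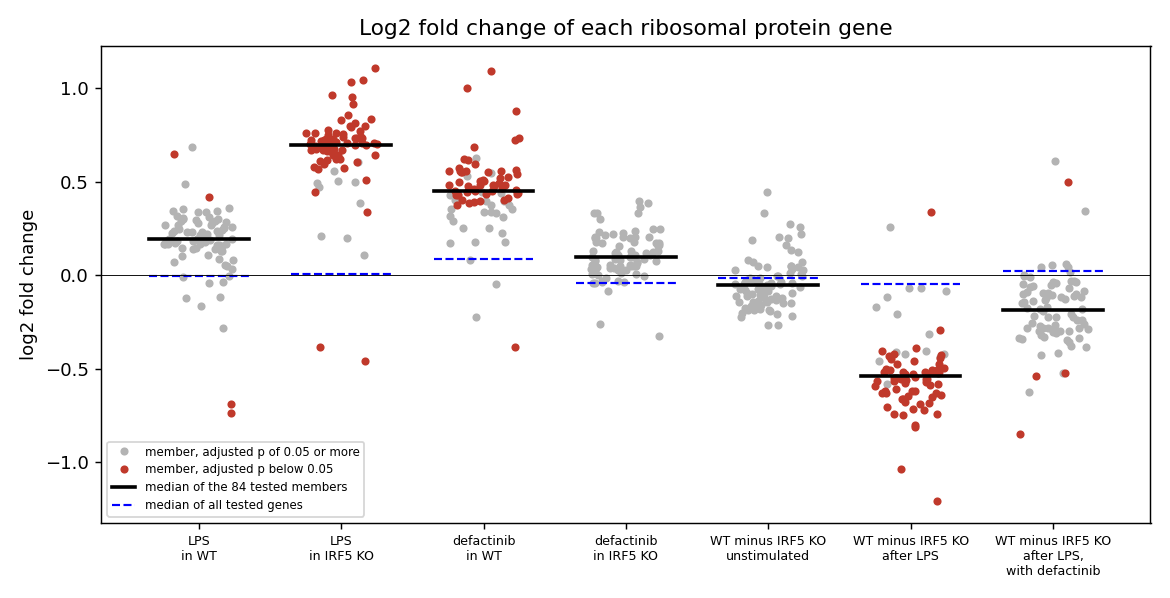
Each point is 1 tested member (Rpl39l is left out), with its log2 fold change in 7 comparisons; black lines are medians of the 84 tested members and blue dashed lines medians of all tested genes. The cloud lies near 0.70 for LPS in IRF5 KO, near 0.45 for defactinib in WT and near -0.54 for WT minus IRF5 KO after LPS.

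Defactinib before LPS raised the members in WT cells. Against WT LPS DMSO, 52 of 84 rose and 1 fell, beside 28.4% and 28.6% of all tested genes. The median was 0.45, or 1.37-fold, where all tested genes had a median of 0.086. Of the large subunit 32 rose and of the small subunit 20. In 56 members every defactinib library was above every DMSO library, against 31.0% of all tested genes. Of the members of at least 100 CPM 35 of 45 rose, and of those under 30 CPM 9 of 27 rose and 1 fell. The 3 defactinib libraries differed in the members' level, and the count moved with them. Without defactinib replicate 2 it was 15 higher with a median of 0.29, where 24.2% of all genes were higher. Without replicate 3 it was 70 higher with a median of 0.61 (29.8% of all genes), and without replicate 1 it was 42 (27.1%). Without WT LPS DMSO replicate 1, 2 or 3 it was 29, 23 and 31, beside 24.9%, 23.7% and 24.9% of all genes.

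Rpl27a, a large subunit protein, had the largest rise among members above the level threshold. It was at 23.3, 23.9 and 22.4 CPM with DMSO and at 41.4, 45.2 and 28.9 CPM with defactinib, a log2 fold change of 0.73 ± 0.20 (adjusted p = 0.0049). Rps28 was at 23.7, 18.9 and 22.4 CPM and then at 34.1, 49.2 and 24.1 CPM (0.72 ± 0.24, adjusted p = 0.017). Rpl13a, which also belongs to a complex that silences inflammatory mRNAs, was at 15.4, 15.3 and 17.03 CPM and then at 25.7, 28.3 and 23.1 CPM (0.69 ± 0.19, adjusted p = 0.0066). In all 3 genes defactinib replicate 3 was the lowest of its group and above every DMSO library. The 2 members past 2-fold were of low level. They were Rpl28, at 1.00 ± 0.23 (adjusted p = 0.0019), and Rpl3l, the striated muscle paralog of Rpl3, with 1.72, 1.33 and 1.91 CPM against 3.14, 3.22 and 4.21 CPM (1.09 ± 0.19, adjusted p = 2.0e-04). Of the stalk members Rplp2 rose (0.45 ± 0.17, adjusted p = 0.033), and Rplp0 and Rplp1 did not pass. Rplp0 had 1567, 1907 and 1188 CPM with defactinib, on both sides of the DMSO libraries (0.31 ± 0.18, adjusted p = 0.14), and Rplp1 had 0.40 ± 0.21 (adjusted p = 0.11). With IRF5 KO LPS DMSO replicate 3 omitted, both passed at nearly the same sizes (adjusted p = 0.021 for Rplp0 and 0.012 for Rplp1). Rpl10a fell once more, from 13.75, 16.9 and 11.6 CPM to 10.4, 12.99 and 8.94 CPM (-0.38 ± 0.16, adjusted p = 0.048), with groups that overlapped, and this call was lost in 19 of 26 alternatives. Rps27l did not follow the others. It had 207, 201 and 226 CPM with defactinib and 203 to 237 CPM with DMSO (-0.05 ± 0.13, adjusted p = 0.78).

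In IRF5 KO cells defactinib moved no member past the test, where 1.87% of all tested genes rose and 1.49% fell. At an unadjusted p under 0.05 there were 3 members, beside 23.3% of all tested genes, and DESeq2 called 1 higher, beside 4.03%. The median was 0.098 and it was -0.096 without LPS DMSO replicate 3. Rpl28 was lower in that fit (-0.57 ± 0.12, adjusted p = 0.0098), beside 2.21% of all genes. Without LPS DMSO replicate 2, 1 member was lower, beside 7.61% of all genes. Rplp0 had 2103, 2122 and 1999 CPM with defactinib, inside the DMSO range of 1273 to 2251 CPM. The interaction of defactinib with genotype called 4 members higher in WT and none lower, beside 18.4% and 18.5% of all tested genes, at a median of 0.35 (all genes 0.12). They were Rpl28 (1.26 ± 0.33, adjusted p = 0.0066), Rpl3l (0.97 ± 0.27, adjusted p = 0.0094), Rps23 (0.64 ± 0.22, adjusted p = 0.033) and Rpl7l1 (0.62 ± 0.17, adjusted p = 0.012). Rpl7l1 had -0.32 in IRF5 KO and 0.29 in WT. At an unadjusted p under 0.05 there were 10 members, beside 46.0% of all tested genes, and DESeq2 also called none lower. Without IRF5 KO LPS DMSO replicate 3 the interaction called 57 members higher, beside 26.9% of all genes, and without WT LPS defactinib replicate 3 17, beside 20.4%. Without WT LPS defactinib replicate 2 it called 3 higher and 1 lower, beside 17.6% and 15.8%. With library size as the only scaling 56 were higher, beside 34.4% of all genes. Both interactions use the IRF5 KO LPS DMSO libraries, and the LPS and defactinib comparisons of a genotype share its LPS DMSO group.

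Between the genotypes without stimulation, no member passed, with 7.93% of all tested genes higher in WT and 7.37% lower. The median was -0.053, and 1 member had an unadjusted p under 0.05, beside 26.4% of all tested genes. DESeq2 called none, beside 9.81% of all genes higher and 8.66% lower. With the 2 groups fitted alone 3 were called higher and 7 lower, beside 22.1% and 20.98% of all genes in that fit. Without IRF5 KO LPS DMSO replicate 3, 1 was higher, beside 13.1% of all genes.
After LPS with DMSO 66 members were lower in WT than in IRF5 KO and 1 was higher, beside 26.9% and 25.3% of all tested genes, and 2 of the 66 were past 2-fold. The median was -0.54 (all genes -0.047), an expression in WT of 0.688 times that in IRF5 KO. In 31 members every WT library was below every IRF5 KO library, against 23.6% of all tested genes. Without IRF5 KO LPS DMSO replicate 3, 75 were lower at a median of -0.73 and none was higher, beside 32.4% and 33.0% of all genes in that fit. Without replicate 1 or 2 of that group 24 and 29 were lower, beside 21.4% and 21.5% of all genes. Without WT LPS DMSO replicate 1, 2 or 3 the number was 52, 48 and 50, beside 22.5% to 22.8% of all genes. Fitted alone, the 2 groups gave 22 lower, beside 17.5%.
Rpl28 and Rpl5 were the 2 past 2-fold, at -1.21 ± 0.23 (adjusted p = 5.9e-04) and -1.03 ± 0.26 (adjusted p = 0.0040), and the groups overlapped for Rpl5. The next largest differences with groups that did not overlap were in Rpl27a, Rpl21 and Rpl12. Rpl27a had 22.4 to 23.9 CPM in WT and 49.5, 47.3 and 25.3 CPM in IRF5 KO (-0.81 ± 0.20, adjusted p = 0.0030). Rpl21 had 103 to 112 CPM in WT and 211, 203 and 130 CPM in IRF5 KO (-0.74 ± 0.16, adjusted p = 0.0016). Rpl12, with 9.30 to 11.3 CPM in WT and 18.3, 17.4 and 14.97 CPM in IRF5 KO, had the closest IRF5 KO replicates of the 3 (-0.74 ± 0.13, adjusted p = 2.8e-04). Rps27l alone was higher in WT, with 203 to 237 CPM against 190, 183 and 142 CPM (0.34 ± 0.13, adjusted p = 0.037), and it was not called without replicate 2 or 3 of IRF5 KO LPS DMSO, without any WT LPS DMSO library or when IRF5 KO LPS defactinib replicate 1 was left out.
After LPS with defactinib 3 members were lower in WT and 1 was higher, beside 18% and 18.3% of all tested genes, at a median of -0.18 (all genes 0.025). Rpl5 was at 20.5, 19.6 and 12.4 CPM in WT and 31.6, 30.3 and 32.8 CPM in IRF5 KO (-0.85 ± 0.26, adjusted p = 0.018). Rpl17 was at 12.05, 13.45 and 8.71 CPM against 16.7, 15.9 and 17.2 CPM (-0.54 ± 0.20, adjusted p = 0.042). Rpl10a was at 10.4, 12.99 and 8.94 CPM against 14.2, 18.03 and 14.2 CPM (-0.52 ± 0.16, adjusted p = 0.017). Rpl7l1 was higher in WT, with 110, 93.7 and 116 CPM against 74.4, 74.5 and 77.4 CPM (0.50 ± 0.12, adjusted p = 0.0051). Without WT LPS defactinib replicate 1, 2 or 3 the number lower was 1, 20 and 0, beside 15.6%, 16.1% and 16.5% of all genes. It was 17 without IRF5 KO LPS DMSO replicate 3, with 2 higher, beside 24.2% and 25.2% of all genes, and 1 when IRF5 KO LPS defactinib replicate 2 or 3 was left out.

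**Figure D4:**
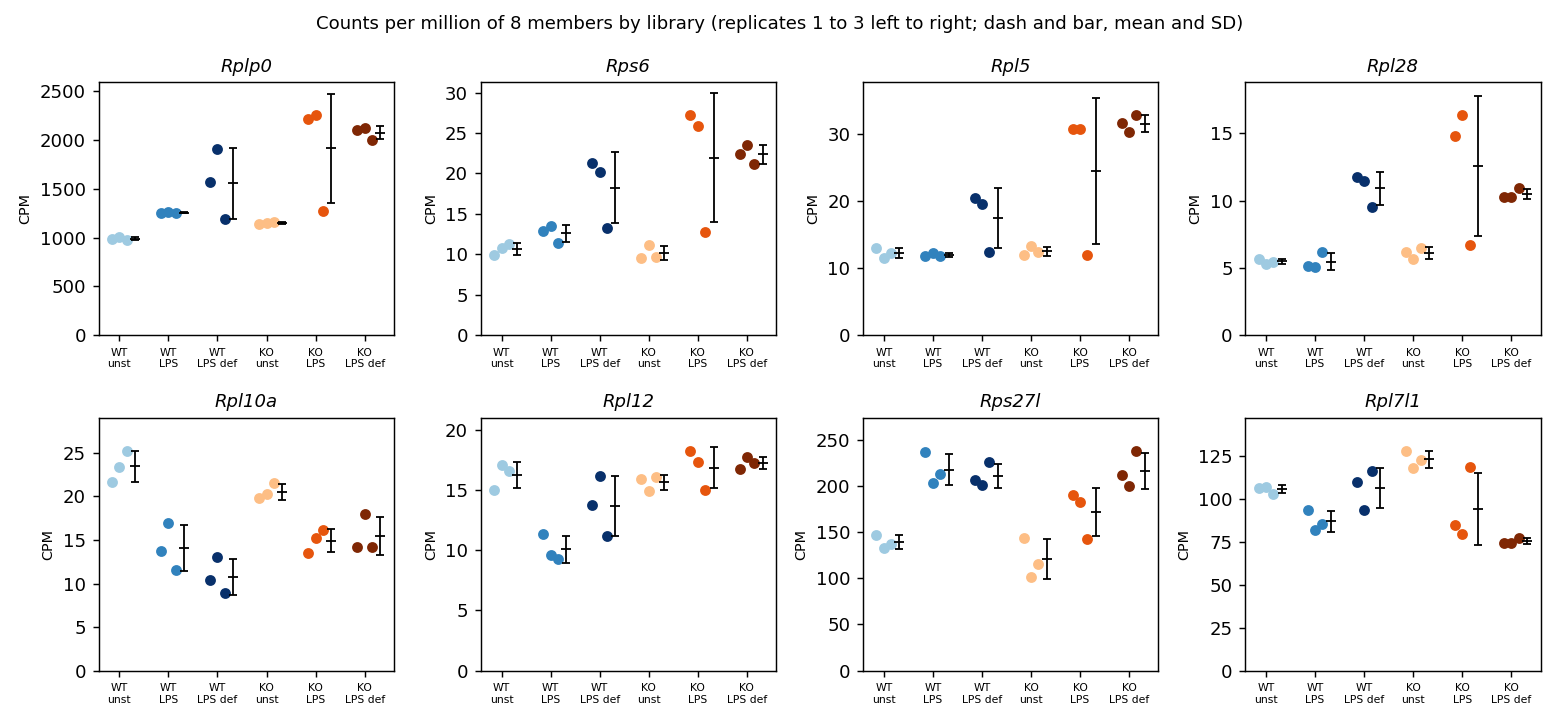
CPM of 8 members in each library of the 6 groups, with the mean and SD beside the points; KO is IRF5 KO and def is defactinib. Rplp0, Rps6, Rpl5 and Rpl28 show IRF5 KO LPS replicate 3 far below replicates 1 and 2, while Rpl10a is highest in both unstimulated groups and Rpl7l1 is on average highest in unstimulated IRF5 KO.

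Members with a paralog among the members allowed a comparison within pairs. Rpl22 rose 0.69 ± 0.17 in IRF5 KO with LPS and Rpl22l1 1.03 ± 0.20, and with defactinib in WT they rose 0.62 ± 0.17 and 0.56 ± 0.20. Rps27 and Rps27l went apart with defactinib in WT, at 0.88 ± 0.27 (adjusted p = 0.012) and -0.05 ± 0.13. Rpl7 rose 0.72 ± 0.15 with LPS in IRF5 KO (adjusted p = 0.0031), where Rpl7l1 fell. Rpl36al rose 0.45 ± 0.12 (adjusted p = 0.010) and Rpl36a had 0.50 ± 0.20 (adjusted p = 0.057). Rpl10, which joins the large subunit late in its assembly, had 0.21 ± 0.11 (adjusted p = 0.14) there and -0.22 ± 0.11 (adjusted p = 0.098) with defactinib in WT, so that it passed in neither. With IRF5 KO LPS DMSO replicate 3 omitted, Rpl10 rose with LPS in IRF5 KO (0.33 ± 0.09, adjusted p = 0.0061) and fell with defactinib in WT (-0.22 ± 0.08, adjusted p = 0.027), and Rpl36a rose with LPS in IRF5 KO (0.73 ± 0.15, adjusted p = 4.2e-04). Rpl39l was counted at 0.0514 to 1.25 CPM and none of its changes passed. The differences within pairs were not tested.

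Other gene lists of the translation machinery were set beside the members, and no list was tested against the members or against all genes. Of 20 translation factors whose mRNAs carry TOP tracts, 19 rose with LPS in IRF5 KO (median 0.65) and 7 in WT (median 0.29), 9 rose with defactinib in WT (median 0.37), and 13 were lower in WT after LPS (median -0.40). Of all tested genes 18.5% rose with LPS in IRF5 KO and 20.6% in WT. With defactinib in WT 28.4% of all tested genes rose, and 26.9% were lower in WT after LPS. No translation factor was called the opposite way in these 4 comparisons. Eef1a1, the factor that brings tRNA to the ribosome, rose 0.72 ± 0.15 in IRF5 KO (adjusted p = 0.0040) and 0.40 ± 0.15 in WT (adjusted p = 0.044). Pabpc1, the poly(A)-binding protein, rose 0.75 ± 0.14 in IRF5 KO and 0.86 ± 0.14 in WT (adjusted p = 0.0023 and 1.7e-04). In WT after LPS, Pabpc1 was lower in every defactinib library, a difference that was not called. It was at 1711, 1636 and 1344 CPM with defactinib against 1900, 1932 and 1875 CPM with DMSO. Fau and Rack1, ribosomal proteins named outside the symbol rule, rose 0.85 ± 0.17 and 0.67 ± 0.16 in IRF5 KO. Without IRF5 KO LPS DMSO replicate 3, Eef1a1 had 0.91 ± 0.11 and Pabpc1 0.94 ± 0.08 in IRF5 KO, and 20 of the 20 translation factors rose in IRF5 KO, 12 rose in WT, 14 rose and 1 fell with defactinib in WT, and 19 were lower in WT after LPS. In that fit 28.0% of all genes rose with LPS in IRF5 KO and 25.5% in WT. With defactinib in WT 32.9% of all genes rose and 31.7% fell, and 32.4% were lower in WT after LPS. Of 114 tested pseudogenes 66 rose with LPS in IRF5 KO (median 0.73), 33 rose with defactinib in WT (median 0.42) and 1 rose with LPS in WT (median 0.26). These stand beside 18.5%, 28.4% and 20.6% of all tested genes, so the 33 are near the general share and the 1 is below it. Without IRF5 KO LPS DMSO replicate 3, 84 of 115 pseudogenes rose with LPS in IRF5 KO, 25 rose with LPS in WT and 51 rose with defactinib in WT. In that fit the shares of all genes were 28.0%, 25.5% and 32.9%. Reads of a member and of its near-identical copies cannot be fully told apart, so these are not independent of the members.
For the counts that follow, 20.6% of all tested genes rose and 21.2% fell with LPS in WT, 18.5% rose and 19% fell in IRF5 KO, and 28.4% rose and 28.6% fell with defactinib in WT. Of 66 tested ribosome biogenesis genes 5 rose and 30 fell with LPS in WT (median -0.27), and 10 rose and 20 fell in IRF5 KO (median -0.10). With defactinib in WT 16 rose and 16 fell, each below the share of all genes. Rrp1b, a nucleolar protein of pre-rRNA processing, fell 1.91 ± 0.18 on the log2 scale in WT with LPS and fell 0.86 ± 0.17 in IRF5 KO, both past the test (-1.10 ± 0.14 in IRF5 KO without LPS DMSO replicate 3). Of 12 tested RNA polymerase I genes 1 rose and 4 fell in WT and 3 rose and 5 fell in IRF5 KO with LPS. Of 77 tested mitochondrial ribosomal protein genes 2 rose and 18 fell with LPS in WT (median -0.11), 12 rose and 15 fell in IRF5 KO (median 0.078), and 45 rose and 6 fell with defactinib in WT (median 0.37). Without IRF5 KO LPS DMSO replicate 3, 16 ribosome biogenesis genes rose and 34 fell with LPS in IRF5 KO, 3 RNA polymerase I genes rose and 9 fell, and 32 mitochondrial ribosomal protein genes rose and 18 fell (27.97% and 30.3% of all genes). Mitochondrial and cytosolic ribosomal proteins thus had like medians with defactinib in WT and unlike ones with LPS in IRF5 KO. Of 26 translation initiation factors 9 rose and 3 fell with LPS in each genotype, and 5 rose and 9 fell with defactinib in WT. With replicate 3 left out, 10 rose and 6 fell with LPS in IRF5 KO.
Among 26 tested regulators of mTORC1 and MYC signalling 5 rose and 10 fell with LPS in each genotype, and 8 rose and 7 fell with defactinib in WT. Larp1, which binds TOP mRNAs, rose 1.44 ± 0.08 in WT and 0.55 ± 0.07 in IRF5 KO with LPS (adjusted p = 2.3e-09 and 2.5e-04), and fell with defactinib in WT (-1.37 ± 0.08, adjusted p = 2.9e-09). Ddit4, an mTORC1 inhibitor, fell with LPS in WT (-2.27 ± 0.40, adjusted p = 3.0e-04), rose in IRF5 KO (1.31 ± 0.36, adjusted p = 0.013) and rose with defactinib in WT (3.48 ± 0.41, adjusted p = 5.7e-06). Myc, a driver of ribosome gene transcription, fell with LPS in both genotypes, by -4.40 ± 0.41 in WT and by -1.42 ± 0.35 in IRF5 KO (adjusted p = 6.5e-07 and 0.0081). Replicate 3 of IRF5 KO LPS DMSO stood apart in both genes. Ddit4 was at 11.1, 11.5 and 2.84 CPM there and at 3.15 to 3.87 CPM unstimulated, so that its rise rests on replicates 1 and 2 (1.72 ± 0.18 without replicate 3). Myc was at 7.12, 8.06 and 27.02 CPM there and at 36.8 to 38.4 CPM unstimulated, and without replicate 3 it had -2.31 ± 0.13. As a check of the treatment, 6 of 6 LPS response genes such as Tnf and Il6 rose with LPS in both genotypes and fell with defactinib in WT. In IRF5 KO LPS DMSO replicates 1 to 3 Il6 was at 28.3, 27.9 and 382 CPM and Tnf at 2491, 2495 and 1141 CPM, so that replicate 3 stood apart in both, above the others in Il6 and below them in Tnf.

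**Figure D5:**
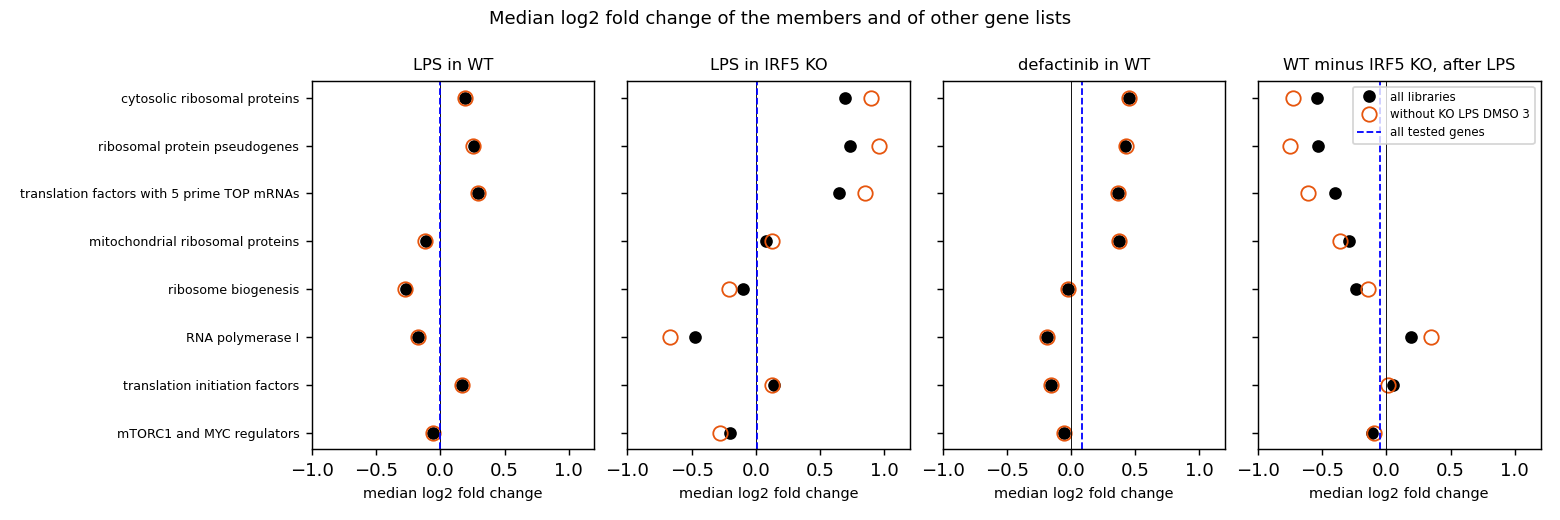
Median log2 fold change of the members and of 7 other lists in 4 comparisons, with all libraries (black) and without IRF5 KO LPS DMSO replicate 3 (open circles); the blue dashed line is the median of all tested genes. Pseudogenes and TOP translation factors lie near the members, and ribosome biogenesis and RNA polymerase I genes lie below them for LPS and defactinib.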

How the data were processed

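The deposited table held raw counts per gene for 18 libraries. Per the file header and the methods, the authors aligned 150-base paired reads with STAR to mm10 and counted uniquely mapped, reverse-stranded pairs over exons with featureCounts 1.6.3 (minimum mapping quality 255). Gene symbols came from GENCODE M21 for 50376 of 50600 IDs, and 73 of the 85 members had its start and end. Unique mapping leaves out read pairs that fit near-identical copies equally well, and its part in the levels was not tested. From the counts, edgeR 4.0.16 (R 4.3.3) gave TMM-scaled CPM, RPKM over exon length, and quasi-likelihood F tests (two-sided) in 1 fit of all libraries over 15663 genes kept by filterByExpr, adjusted after Benjamini and Hochberg. The threshold was an adjusted p of 0.05. The symbol rule uses no values, but this gene set and the lists were taken up with earlier results of these data known. Named members were, per comparison, the 3 largest rises and falls past the threshold whose groups did not overlap (mean log2 CPM 3 or more), the 3 highest by RPKM, paralog pairs and a fixed set; Rpl28, below that level, was named after its values were seen. DESeq2 1.42.0, other scalings, no filter, a length correction, a replicate block, fits of only the groups compared and leaving out each library were the alternatives. 1 member enters all counts and medians but is not reported here by name.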

Additional observations from a re-analysis of the deposited data

Results flagged for a closer look

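In 7 tests of a difference between the genotypes, taken as an interaction in edgeR, a member passed. These are 3 of 84 members lower for LPS and 4 of 84 higher for defactinib. Among all tested genes 7.35% and 18.4% were called so, and the members were called less often. The LPS effect was lower in WT than in IRF5 KO for Rpl12 (-0.80), Rpl28 (-1.05) and Rps23 (-0.78), all on the log2 scale. The defactinib effect was higher in WT than in IRF5 KO for Rpl28 (1.26), Rpl3l (0.97), Rpl7l1 (0.62) and Rps23 (0.64). Rpl28 and Rps23 appear in both sets, and the IRF5 KO LPS DMSO libraries enter both interactions with opposite sign. Rpl28 was counted at 14.8, 16.3 and 6.67 CPM in these 3 libraries. With replicate 3 left out, all 7 differences kept their sign and passed. That fit keeps only replicates 1 and 2 of the group. They differed by a chi-square of only 2.33 per gene over all genes, so passing there adds little. In that fit 21.4% of all genes were lower in the LPS interaction and 26.9% were higher in the defactinib interaction. The LPS differences were then -0.87 for Rpl12, -1.36 for Rpl28 and -0.94 for Rps23, and the defactinib differences 1.57 for Rpl28, 0.99 for Rpl3l, 0.42 for Rpl7l1 and 0.80 for Rps23.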

How the results depend on the processing

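Scaling by library size alone lowered or raised the members with all other genes. LPS in WT then gave 1 member higher and 6 lower (12.2% and 41.5% of all genes) at a median of -0.18, and Rpl36al turned to -0.27. LPS in IRF5 KO gave 46 higher (9.61% of all genes, member median 0.44), and defactinib in WT gave 74 higher (39.0% of all genes) and 0 lower (22.8%, member median 0.65). The genotypes differed by a median of -0.16 unstimulated and -0.77 after LPS (0 higher, beside 16.4% of all genes). After LPS with defactinib 2 were higher and 1 lower (21.2% and 15.1% of all genes). The LPS interaction gave 19 lower (14.4% of all genes) and the defactinib interaction 56 higher (34.4% of all genes, member median 0.65). With no filter, 0 members fell with defactinib in WT (16.6% of all genes) and 0 were higher in WT after LPS (13.2%). With a length correction LPS in WT gave 1 higher (18.52% of all genes, member median 0.066) and defactinib in WT 0 lower (24.39%). Genotype after LPS with defactinib then gave 8 lower (18.76% of all genes). In that fit the LPS interaction gave 6 lower (11.64%) and the defactinib interaction 1 lower (16.98%). With only the groups compared in the fit, LPS in WT gave 48 higher (30.8% of all genes). LPS in IRF5 KO gave 0 higher and 0 lower (1.43% and 0.113%), and defactinib in WT 0 lower (28.5%). The genotypes then gave 3 higher and 7 lower unstimulated (22.1% and 20.98% of all genes) and 0 higher and 22 lower after LPS (16.7% and 17.5%). After LPS with defactinib they gave 2 higher and 1 lower (20.4% and 18.1%), and the defactinib interaction gave 2 higher (14.1%). DESeq2 gave 5 higher for LPS in WT (22.48% of all genes) and 1 higher for defactinib in IRF5 KO (4.03%). For genotype after LPS it gave 2 higher (26.57% of all genes) and, with defactinib, 6 lower (19.03%). For the LPS interaction it gave 6 lower (9.72%). For these changes, beyond the fewer samples or genes in some fits, the cause was not tested. Without the 10 most abundant other genes, the mean share of counts was 1.75% in WT unstimulated, 1.58% in WT LPS DMSO, 1.99% in IRF5 KO unstimulated and 2.80% in IRF5 KO LPS defactinib.

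Leaving out 1 library at a time gave 1 to 22 members higher for LPS in WT, beside 16.9% to 25.5% of all genes. LPS in IRF5 KO had 44 to 78 higher and 0 to 2 lower, beside 9.49% to 28.0% and 6.19% to 30.3% of all genes. Defactinib in WT had 15 to 70 higher and 0 to 2 lower (median 0.29 to 0.61), beside 23.7% to 32.9% and 24.9% to 31.7%. Defactinib in IRF5 KO had 0 to 1 lower, beside 0.081% to 7.61% of all genes, and genotype unstimulated 0 to 1 higher, beside 5.19% to 13.1%. Genotype after LPS had 0 to 2 higher and 24 to 75 lower, and with defactinib 1 to 2 higher and 0 to 20 lower. The LPS interaction had 0 to 1 higher and 1 to 68 lower (median -0.66 to -0.38), beside 5.92% to 25.3% and 4.57% to 21.4% of all genes. The defactinib interaction had 3 to 57 higher and 0 to 1 lower (median 0.21 to 0.54), beside 16.1% to 26.9% and 15.3% to 27.0%.

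Same-numbered libraries of different groups did not deviate together, with a median correlation of 0.0046 over 45 pairs and 4 pairs above 0.1, so the numbers were not taken as pairs. A replicate block gave 72 members higher for LPS in IRF5 KO (18.04% of all genes), 57 higher for defactinib in WT (27.9%) and 63 lower for genotype after LPS (26.2%).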
